A study of Mus musculus with 16 samples.

Results

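The 34 genes described here encode enzymes and partner proteins that break down fatty acids in mitochondria and peroxisomes. They were chosen by name: a probe belonged to a gene when the gene name in the scanner output equalled 1 of the 34 symbols. All 34 were on the array, all 34 were called well above background on each of the 16 arrays, and all 34 are among the 20400 genes that passed the filter on dim probes. By where the protein is known to work, 16 were counted as mitochondrial and 12 as peroxisomal, and 6 were kept apart because they act at activation or occur in more than 1 compartment.

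Hepatocytes burn fatty acids mainly between meals. A fatty acid is first joined to coenzyme A, long chains then enter mitochondria as carnitine esters, and a spiral of dehydrogenation, hydration, a second dehydrogenation and thiolytic cleavage removes acetyl-CoA units. Peroxisomes run a similar spiral on very long and branched chains, for which acyl-CoA oxidases take the first step, and pass shortened chains on. Many of these genes are textbook targets of PPARα, the nuclear receptor that senses fatty acids in the fasted liver, and their transcripts also follow the daily feeding rhythm.

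The livers came from 10-week-old male C57BL/6 mice that were conventional (with a microbiota of their own, no antibiotics) and received normal chow (NC) over the 4 weeks that followed the first gavage at the age of 6 weeks. Recipients were gavaged with reduced PBS as vehicle (Conv + PBS, 6 mice), with caecal content of lean donors on NC (Conv + LM, 5 mice) or with caecal content of donors made obese by a high-fat diet (Conv + OM(HFD), 5 mice). The sample labels call the control mice not transplanted, whereas the design text names the vehicle. Per the methods all mice were killed after a 6 h fast under an inverted light cycle. They were housed 5 or 6 to a cage, so a whole group may share a cage, and each transplant was pooled from several donors. The paper also reports some divergence of the faecal microbiota between the groups before the transfer. The p-values thus measure the spread between these mice, and not between cages or transplants.

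Each liver was hybridized to its own array. Values are log2 of the processed intensity minus the 75th percentile of that array, so a difference of 1 is a 2-fold difference. The levels of different genes are not compared, because each probe has its own brightness. The arrays correlated with each other at r = 0.976 to 0.993 across genes, 49.7% to 58.3% of probes were above background, and 8 arrays lay on each of the 2 slides, with 2 or 3 mice of every group on each. Hepatocyte markers were bright in every liver (mean log2 value of 8 genes from 8.64 to 9.15). Neutrophil markers (mean of the 4 genes measured of 6, without Ltf and Retnlg) stood apart in 2 livers, at 1.79 in Conv + PBS mouse 1 and 1.55 in Conv + OM(HFD) mouse 25, against -3.32 to -1.93 in the other 14.

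The probes that stand for these genes are 60 bases long, and closely related genes were read by different sequences. The 2 peroxisomal thiolases Acaa1a and Acaa1b are shown because their transcripts are much alike. The 30-base stretches below come from their probes, with the longest run of bases that both 60-base probes share in capitals (6 bases):
Acaa1a: gggagggatgcagtAAATGTgtactgtctc
Acaa1b: gtgtcacagcactttaatttagaAAATGTa
Among the probes of Acot1, Acot2, Acot3, Acot4 and Acot5, a family of neighbouring thioesterase genes, no pair shared a run of more than 9 bases. Probes were compared only with probes, so whether a probe also matches the transcript of a related gene was not tested. Probe positions are on mm9 as the files give them. The first 30 bases of both Acox2 probes (chr14:9058141-9058200 and chr14:9082421-9082480, both on the minus strand) and of the Acsl5 probe (chr19:55368743-55369331, plus strand) are given next, because Acox2 was the member with the smallest p between groups and these 2 genes did not follow the other members:
Acox2, brighter probe: tggcgtgcggcttgttcagatcagcgagta
Acox2, dimmer probe: ttacaattcttccacagctcctacagtgat
Acsl5: gcagccaagatcggggtaaagggatcattt

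Promoters of 29 members were found in the RefSeq promoter table (GRCm38.p6), and the 250 bases before each start were searched on both strands. The hexamer AGGTCA, the unit from which PPARα and related receptors build their sites, occurred in 3 of the 29 (10.3%, against 14% of all 32851 promoters), namely Acadm, Acadvl and Acot4. A pair of copies of AGGNCA with 1 base of any kind between them (the DR1 motif) occurred in none of the 29 and in 0.338% of all promoters. The NRF1 motif, GCGCA followed by any base and GCGC, occurred in Etfb and Etfdh (6.9%, against 3.74% of all). The box CCAAT was found for 17 of 29 (58.6%, against 33.8% of all) and GGGCGG for 16 of 29 (55.2%, against 32.7%). Members were counted per gene (29 genes with 32 promoter entries) but all promoters per entry, which can raise the shares of the members. The windows with the hexamer and the Etfdh window, 60 bases each, read as follows on the strand of the gene, with the motif in capitals (TGACCT is the hexamer on the other strand):
Acadm, chr3:153944834-153944893, minus strand: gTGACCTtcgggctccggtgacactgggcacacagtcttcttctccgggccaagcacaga
Acadvl, chr11:70015483-70015542, minus strand: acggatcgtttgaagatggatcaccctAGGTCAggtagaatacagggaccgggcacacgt
Acot4, chr12:84038319-84038378, plus strand: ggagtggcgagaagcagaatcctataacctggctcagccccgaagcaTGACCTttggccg
Etfdh, chr3:79628861-79628920, minus strand: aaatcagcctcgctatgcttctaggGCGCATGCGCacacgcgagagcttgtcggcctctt
The hexamer of Acot4 ends 7 bases before the start and that of Acadm 243 bases before it, and Acot4 is also the only one of the 29 with CACGTG, the letters that clock factors bind (3.45%, against 6.02% of all).

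The members rose and fell together from liver to liver. After the group means were removed, the median correlation of the 561 pairs of members across the 16 mice was 0.66, 92.3% of the pairs were positive and 71.8% were above 0.5. Over all pairs of the 20327 genes with a value on every array the median was 0.02 and 6.71% were above 0.5. Nearer sets lay between: among 12 other mitochondrial genes the median was 0.34 and 28.8% were above 0.5. Among 16 genes of peroxisome biogenesis it was 0.14, with 16.7% above 0.5. The first principal component of the members held 64.8% of their variance. These correlations describe 16 livers on 2 slides, and how large they are depends on the scaling: the median over members was 0.50 after quantile normalization and 0.44 with the log2 values of the authors, beside medians of 0.01 for all genes under both.

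In 6 livers at least 28 of the 34 members lay below the mean of their group: Conv + OM(HFD) mouse 25 (31 of 34), Conv + OM(HFD) mouse 28 (32), Conv + LM mouse 13 (32), Conv + LM mouse 14 (30), Conv + PBS mouse 1 (30) and Conv + PBS mouse 2 (28). Conv + LM mouse 15 (33 of 34 above), Conv + OM(HFD) mouse 30 (30), Conv + PBS mouse 6 (29), Conv + LM mouse 17 (29) and Conv + OM(HFD) mouse 29 (28) lay at the other end. Each count is relative to the mean of its own group, so livers on both sides in every group follow from the centring, and only levels compare the groups. The mean over the members spanned 5.88 to 6.39 with vehicle, 5.81 to 6.31 with lean and 5.83 to 6.40 with obese microbiota, with means of 6.11 ± 0.19 (SD, n = 6), 6.05 ± 0.23 (SD, n = 5) and 6.17 ± 0.25 (SD, n = 5). The 3 ranges overlapped almost completely.

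**Figure D1:**
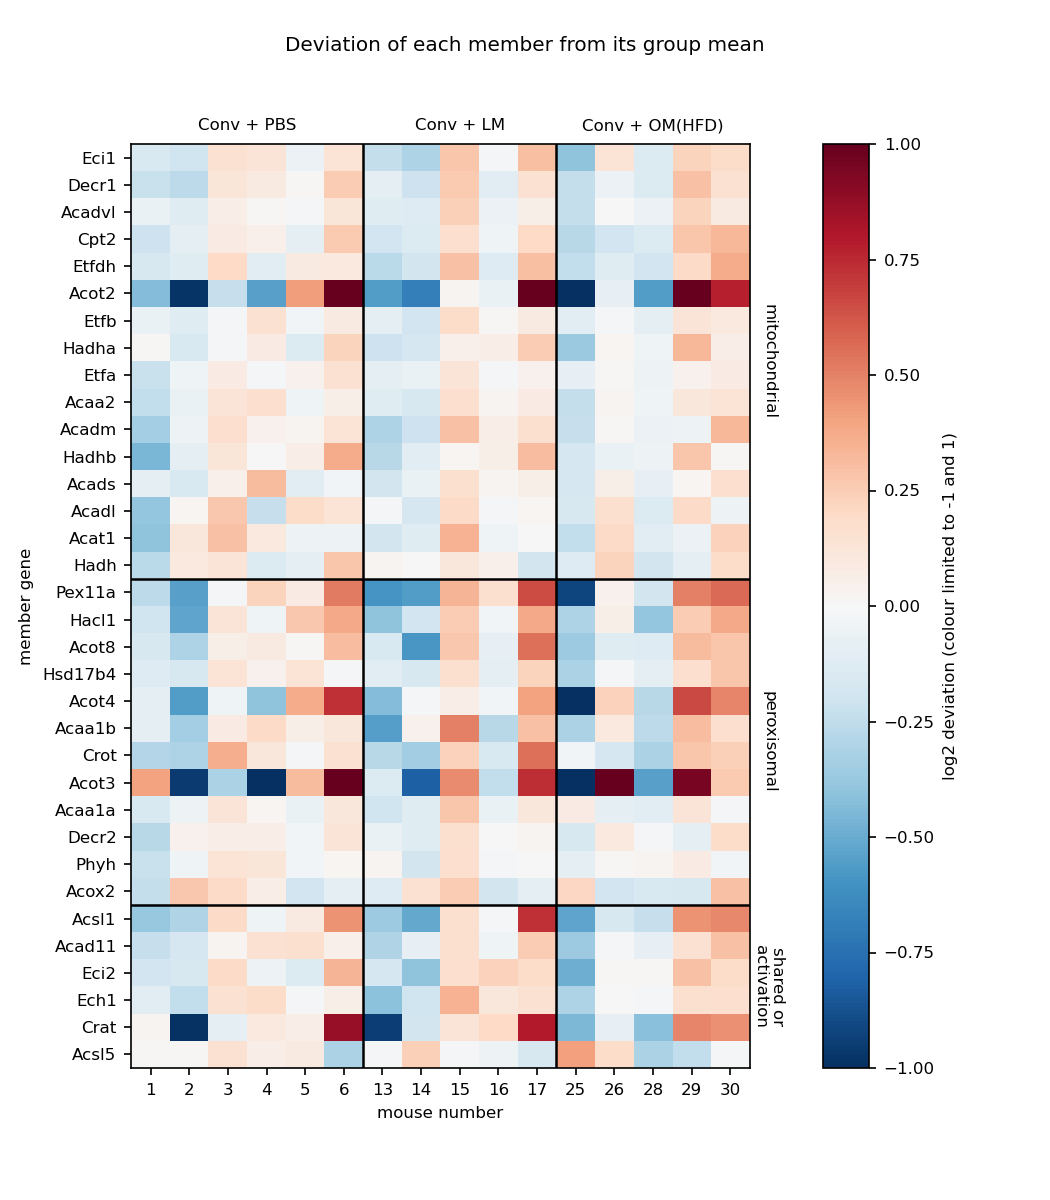
Log2 deviation of each of the 34 members (rows, by compartment and then by correlation with the other members) from the mean of its group, in each of the 16 mice (columns, by group); blue is below and red above the group mean, and the colour is limited to -1 and 1. Columns are mostly blue (mice 13 and 25) or mostly red (mice 6, 17, 29 and 30), while Acox2, Acsl5 and Hadh do not follow their column.

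The mean of the members was higher on slide 2 than on slide 1 (deviation of 0.10 against -0.10, 8 mice each). With the slide means removed too, the median pairwise correlation was 0.64, and it was 0.74 on slide 1 and 0.61 on slide 2 taken alone. Without both livers with high neutrophil markers, which were among those with low members, it was 0.64. Whether the slide or the leucocyte content has a part in the shared variation was not tested beyond these values.

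Mitochondrial and peroxisomal members largely moved together. The median correlation was 0.68 among the 120 mitochondrial pairs, of which all were positive, 0.56 among the 66 peroxisomal pairs (92.4% positive) and 0.65 among the 192 pairs across compartments (97.9% positive). The mean of the mitochondrial members and the mean of the peroxisomal members correlated at r = 0.96 (Spearman's rho 0.94, n = 16 mice, deviations from group means), at 0.98 without the 2 mice farthest from the median, and at 0.98 and 0.93 on slides 1 and 2. This value was between 0.95 and 0.96 under each of the 4 scalings.

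The mean of the peroxisomal members changed by 1.36 on the log2 scale for each unit of the mitochondrial mean, and the median SD between mice within a group was 0.30 for peroxisomal and 0.20 for mitochondrial members, beside 0.24 for all genes. The SD differed from member to member, and the part of single members in the change of 1.36 was not tested. Acot3 (SD 1.01), Acot4 (0.52) and Pex11a (0.51) were wide, whereas Phyh (0.11), Decr2 (0.13), Acaa1a (0.14) and Hsd17b4 (0.18) were below the mitochondrial median. Mitochondrial Acot2 (0.91) was second only to Acot3. The mitochondrial mean minus the peroxisomal mean spanned -0.14 to 0.10 with vehicle, -0.18 to 0.02 with lean and -0.16 to 0.07 with obese microbiota, so that the balance of the compartments overlapped between the groups as well. This balance fell as the mean of the members rose (r = -0.78, rho -0.77, -0.68 without the 2 farthest mice, -0.88 and -0.47 on slides 1 and 2). Both measures hold the same genes, and the peroxisomal members are subtracted in the balance, so this r largely restates the change of 1.36 above.

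**Figure D2:**
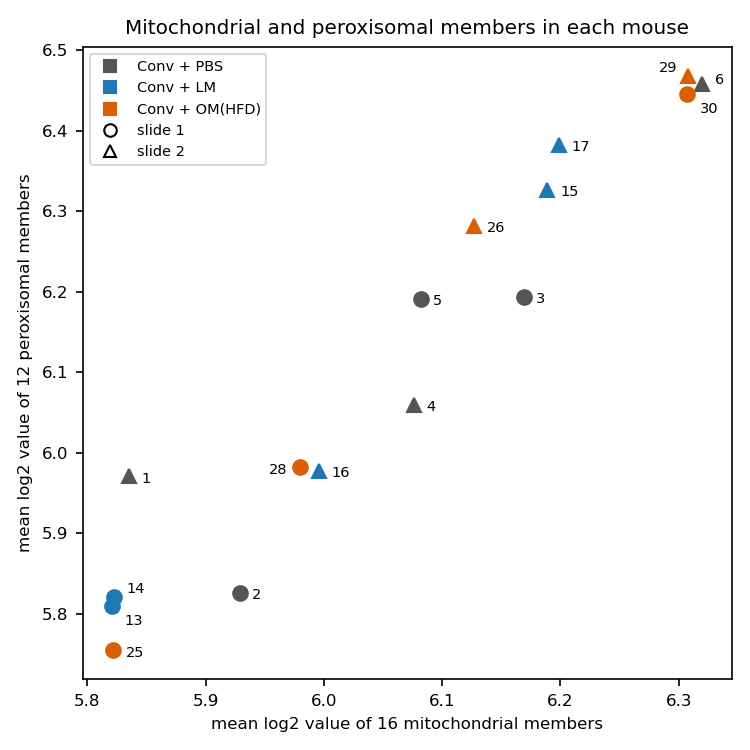
Mean log2 value of the 16 mitochondrial members (x axis) against that of the 12 peroxisomal members (y axis) in each mouse, labelled by mouse number; colour gives the group and the marker gives the slide. The mice lie along 1 line (r = 0.96 within groups), and each colour is spread from the lower left to the upper right.

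Among the genes that activate and carry fatty acids, Acsl1, the main long-chain acyl-CoA synthetase of hepatocytes, followed the other members closely (r = 0.94 with the mean of the other 33). Its log2 value lay between 7.61 and 8.44 in the Conv + PBS mice, with a median of 8.02. It was 7.62, 7.47, 8.14, 7.95 and 8.71 in Conv + LM mice 13 to 17, and 7.65, 8.02, 7.95, 8.63 and 8.66 in Conv + OM(HFD) mice 25, 26, 28, 29 and 30. High and low livers occurred in every group, and the differences between groups were smaller than their SE. Acsl5, another synthetase of the same family, went the other way (r = -0.53, the lowest of all members). It spanned 4.24 to 4.71 (median 4.60) with vehicle, 4.54 to 4.95 with lean and 4.22 to 4.95 with obese microbiota, and was highest in Conv + OM(HFD) mouse 25 and Conv + LM mouse 14, where Acsl1 was at or near its lowest. A second, dimmer Acsl5 probe did not follow the first (r = -0.06) and had r = 0.34 with the mean of the members, so the reversal rests on 1 probe.

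Crat, which moves acetyl groups onto carnitine, varied 3.79-fold between the lowest and the highest liver. Its value was 2.53 to 4.39 in Conv + PBS mice (median 3.57), 2.64, 3.40, 3.71, 3.78 and 4.37 in Conv + LM mice, and 3.51, 3.88, 3.54, 4.45 and 4.42 in Conv + OM(HFD) mice. The Conv + OM(HFD) mice lacked the low values of the other groups, but all 3 groups overlapped (0.45 above Conv + PBS, SE 0.32, limma p = 0.183, exact permutation p = 0.171). That difference was 0.25 without Conv + PBS mouse 2 and 0.27 with the mean of all Crat probes. Cpt2, which releases acyl-CoA inside the mitochondrion, varied less and tracked the other mitochondrial members (r = 0.92). It was 6.44 to 6.91 in Conv + PBS mice (median 6.63), 6.42, 6.46, 6.78, 6.56 and 6.81 in Conv + LM mice and 6.48, 6.58, 6.62, 7.05 and 7.10 in Conv + OM(HFD) mice. The upper ends differed by mice 29 and 30 alone, and Conv + OM(HFD) exceeded Conv + LM by 0.16 (SE 0.13, limma p = 0.255, exact permutation p = 0.310), by 0.09 and 0.08 without mouse 29 or mouse 30, and by 0.06 with the mean of all Cpt2 probes. Crot, the peroxisomal octanoyltransferase, had r = 0.80 with the other members.

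Within the mitochondrial spiral, the very-long-chain dehydrogenase Acadvl (r = 0.91 with the other members), the medium-chain enzyme Acadm (0.80), both subunits of the trifunctional protein, Hadha (0.83) and Hadhb (0.79), and the thiolase Acaa2 (0.82) moved with the rest. The short-chain dehydrogenase Acads (0.61), the long-chain enzyme Acadl (0.59), the acetoacetyl-CoA thiolase Acat1 (0.55) and above all the short-chain 3-hydroxyacyl-CoA dehydrogenase Hadh (0.36) did so less. All 3 genes that pass electrons on to the respiratory chain, Etfa, Etfb and Etfdh, had r = 0.82, 0.84 and 0.89, beside a median of 0.83 over the members. The fold between the extreme livers was 1.30 for Etfa, 1.29 for Etfb and 1.77 for Etfdh, beside a median of 1.69 over the members.

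Decr1, the mitochondrial 2,4-dienoyl-CoA reductase for unsaturated chains, had the highest correlation of the mitochondrial members with their compartment (r = 0.93). It was 7.39 to 7.91 in Conv + PBS mice (median 7.71), 7.47, 7.36, 7.83, 7.46 and 7.72 in Conv + LM mice and 7.48, 7.66, 7.58, 8.01 and 7.87 in Conv + OM(HFD) mice. The groups overlapped, with the largest difference between Conv + OM(HFD) and Conv + LM (0.15, SE 0.13, limma p = 0.262, exact permutation p = 0.278), which was 0.08 without Conv + OM(HFD) mouse 29 and 0.10 without Conv + LM mouse 14. The isomerases for unsaturated chains moved likewise (Eci1 r = 0.93, Eci2 0.86, Ech1 0.83), as did Acad11, a dehydrogenase of long chains (0.88). Acad11 was 6.86 to 7.24 in Conv + PBS mice (median 7.13), 6.73, 6.94, 7.19, 6.98 and 7.28 in Conv + LM and 6.75, 7.09, 7.02, 7.25 and 7.39 in Conv + OM(HFD) mice, again with high and low livers in each group and differences smaller than their SE.

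Of the peroxisomal members, Pex11a, whose product promotes the division of peroxisomes, had r = 0.95 with the other members, the highest of all 34 with the scaling used here (with normexp Acsl1, at 0.933, was above it, at 0.932). Its values were 7.15 to 8.22 in Conv + PBS mice (median 7.72), 7.06, 7.09, 8, 7.82 and 8.31 in Conv + LM mice and 6.86, 7.81, 7.59, 8.27 and 8.34 in Conv + OM(HFD) mice, a 2.80-fold range. Each group spanned most of that range. Hacl1, the lyase of phytanic acid α-oxidation, came next (r = 0.93), at 5.65 to 6.56 in Conv + PBS mice (median 6.23), 5.77, 5.98, 6.42, 6.14 and 6.55 in Conv + LM mice and 6.13, 6.50, 6.05, 6.69 and 6.82 in Conv + OM(HFD) mice. The groups overlapped, and Conv + OM(HFD) exceeded Conv + PBS by 0.26 (SE 0.19, limma p = 0.189, exact permutation p = 0.227) and Conv + LM by 0.27 (SE 0.20, limma p = 0.198, exact permutation p = 0.238). Without Conv + OM(HFD) mouse 30 both differences were 0.17. The first was 0.16 without Conv + PBS mouse 2, and the second was 0.17 without Conv + LM mouse 13. The bifunctional enzyme Hsd17b4 (r = 0.86) and the thiolase Acaa1b (0.80) followed closely, and the thiolase Acaa1a (0.63), the reductase Decr2 (0.63) and the phytanoyl-CoA hydroxylase Phyh (0.50, and below 0 after quantile normalization) less so.

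Acot3 and Acot2, acyl-CoA thioesterases that set free fatty acids from coenzyme A, held the widest ranges of the 34. Peroxisomal Acot3 varied 12.8-fold between livers and mitochondrial Acot2 7.96-fold. Acot3 was 1.46 to 4.37 in Conv + PBS mice (median 2.63), 1.82, 1.15, 2.44, 1.72 and 2.70 in Conv + LM mice and 0.69, 3.74, 2.01, 3.50 and 2.80 in Conv + OM(HFD) mice. Both extremes lay outside Conv + LM, whose mean was 0.67 below that of Conv + PBS (SE 0.57, limma p = 0.258, exact permutation p = 0.262). Without Conv + PBS mouse 6 the difference was -0.32. Acot2 was -0.31 to 2.43 in Conv + PBS mice (median 0.35), -0.32, -0.45, 0.27, 0.17 and 1.51 in Conv + LM mice and -0.56, 0.60, 0.12, 1.78 and 1.47 in Conv + OM(HFD) mice. Mice 6, 17, 29 and 30 were thus the high ones, as for Acsl1 and Pex11a. Acot4 (3.75-fold) was 1.65 to 2.94 in Conv + PBS mice (median 2.14), 1.63, 2.06, 2.14, 2.03 and 2.47 in Conv + LM mice and 1.04, 2.37, 1.85, 2.79 and 2.63 in Conv + OM(HFD) mice, with differences between groups smaller than their SE. Acot8, which acts on a broad range of chains, had r = 0.90 with the other members and the closest pair of all with Acsl1 (r = 0.95).

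Many other genes known to respond to fasting and PPARα moved with the members. The mean of 24 such targets outside the pathway had r = 0.94 with the mean of the members (rho 0.94, n = 16 mice, deviations from group means), and 0.92 without the 2 farthest mice. Ppara itself had r = 0.78, Angptl4, the lipase inhibitor, 0.88, and Cyp4a10, an ω-hydroxylase of fatty acids, 0.91, whereas the fasting hormone Fgf21 had 0.62 (0.49 without the 2 farthest mice) and Ppargc1a, a coactivator of oxidative genes, -0.15. The median of the 276 pairs within this list was 0.42, with 44.2% above 0.5. Over all other genes the median r with the mean of the members was 0.10, and 1.32% were above 0.8. Within the pathway but outside the 34, the mean of 34 further genes had r = 0.96 (rho 0.94, 0.95 without the 2 farthest mice, 0.93 and 0.98 on slides 1 and 2). These genes were mixed one by one: the thioesterase Acot1 had r = 0.94, whereas Echs1, the mitochondrial enoyl-CoA hydratase, had -0.22 and the transporter Cd36 -0.09, and the median of their 561 pairs was 0.15.

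Clock genes, averaged by phase, moved with or against the members as well. The mean of 4 genes of the phase of Arntl, the clock activator, had r = 0.89 (rho 0.88, 0.86 without the 2 farthest mice, 0.92 and 0.84 on slides 1 and 2). The mean of 9 genes of the opposite phase had r = -0.85 (rho -0.84, -0.86 without the 2 farthest). Taken singly these 9 were mixed: Dbp had r = -0.85 and Per3 -0.78, whereas Per1 had -0.37, Per2 -0.28, Nr1d2 -0.14 and Hlf 0.23. The median of their 36 pairs was 0.27, with 25% above 0.5. Arntl was 0.20, 0.32 and 0.74 in mice 6, 17 and 30, and -0.63 and -0.55 in mice 15 and 29, the livers named above with high members. It was -2.23, -2.33, -2.73 and -2.28 in mice 1, 2, 13 and 25, and -1.26 and -1.10 in mice 14 and 28, those with low members. Conv + PBS mouse 3, with 27 of 34 members above the group mean, was at -1.29, below mice 14 and 28. Under the 4 scalings the correlations of these 2 list means ran from 0.84 to 0.89 and from -0.85 to -0.81. Any part of the clock phase or of the feeding state in the shared variation was not tested.

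Reference genes of the same organelles followed the members only in part. The mean of 12 other mitochondrial genes, mostly of the citrate cycle and respiratory chain, had r = 0.69, which fell to 0.23 after quantile normalization, and the mean of 16 genes of peroxisome biogenesis had r = 0.28 (-0.08 after quantile normalization). The 75th percentile of the array had r = -0.53 with the mean of the members (-0.57 without the 2 farthest mice, -0.59 and 0.02 on slides 1 and 2). The share of probes above background had r = -0.02 (-0.33 without the 2 farthest mice, -0.10 and 0.52 on slides 1 and 2). Of the marker lists, those of pancreas (3 genes of 6) had r = 0.63 and those of adipose tissue (4 of 7) 0.52 with the mean of the members, and without the 2 mice farthest from the median of the list 0.44 and 0.35. Muscle markers (2 of 6) had r = 0.28 and red blood cell markers (5 of 6) 0.00, and without the 2 farthest mice 0.58 and 0.44. Hepatocyte markers had r = 0.52, neutrophil markers -0.54 (-0.28 without mice 1 and 25) and Kupffer cell markers -0.37 (0.00 without them). Their part in the shared variation was not tested. In whole liver, fewer cells of a type and less RNA per cell cannot be told apart.

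**Figure D3:**
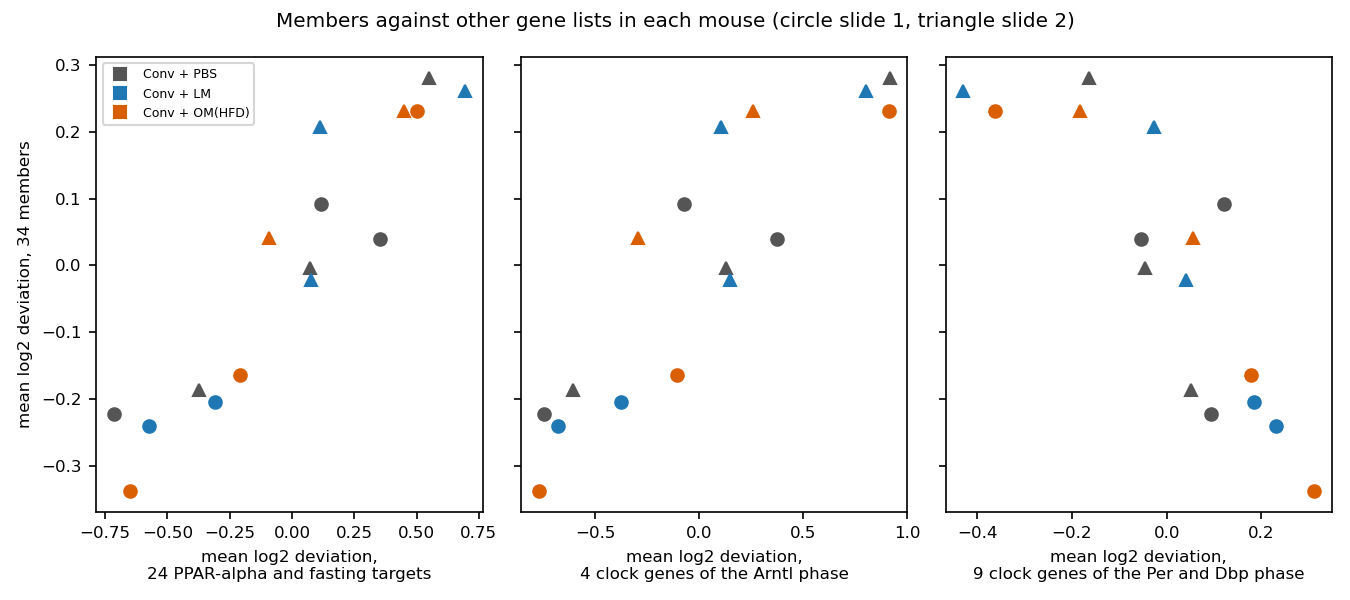
Mean log2 deviation of the 34 members from the group mean (y axis) against that of 24 PPARα and fasting targets, 4 clock genes of the Arntl phase and 9 clock genes of the Per and Dbp phase (x axes), for each of the 16 mice; colour gives the group and the marker the slide. The points rise in the first 2 panels (r = 0.94 and 0.89) and fall in the third (r = -0.85). Offsets between groups are removed on both axes, so the panels do not compare group levels.

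Between the groups, fatty acid oxidation genes hardly differed. With Conv + LM compared with Conv + PBS mice, 1 of the 34 members was higher at an unadjusted limma p under 0.05 and 0 were lower, while 1.79% of all 20400 genes were higher and 2.09% lower. With Conv + OM(HFD) compared with Conv + PBS mice, 0 members passed in either direction (1.49% of all genes higher, 1.76% lower), and with Conv + OM(HFD) compared with Conv + LM mice 0 passed as well (1.38% higher, 1.29% lower). After Benjamini-Hochberg adjustment 0 members passed in limma in any comparison, as did 0% of all genes. In none of the 34 members did 2 groups lie apart without overlap, which 0.28% of genes did in Conv + LM vs. Conv + PBS, 0.226% in Conv + OM(HFD) vs. Conv + PBS and 0.432% in Conv + OM(HFD) vs. Conv + LM.

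The members' differences were small and mostly of 1 sign in each comparison, but not alike on both slides. In Conv + OM(HFD) vs. Conv + PBS the median difference was 0.06, with 22 of 34 members higher in the mean, and in Conv + LM vs. Conv + PBS it was -0.04, with 8 of 34 higher. In Conv + OM(HFD) vs. Conv + LM it was 0.11, with 28 of 34 higher, of which 14 of 16 were mitochondrial and 9 of 12 peroxisomal. The medians over all genes were 0.00, -0.01 and 0.00. Because the members move together from liver to liver, these counts are not 34 independent observations, and the median shift over all mice was smaller than the SD of the member mean between mice (0.22). In Conv + LM vs. Conv + PBS the median was -0.24 on slide 1 and 0.08 on slide 2 taken alone, so its sign turned, and in Conv + OM(HFD) vs. Conv + LM it was 0.22 and 0.05. In Conv + OM(HFD) vs. Conv + PBS it was 0.02 and 0.13. Both comparisons with Conv + PBS share the same 6 control mice. The 95% confidence interval of a typical member reached 0.28 on either side of its difference. In Conv + OM(HFD) vs. Conv + PBS it ran from -0.18 to 0.14 for Etfa and from -1.29 to 1.12 for Acot3. These widths describe the precision with these numbers of mice, and are not sizes above which a change would have been found.

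The compartments had similar shifts over all mice. The median difference of the mitochondrial members minus that of the peroxisomal members was -0.03 in Conv + OM(HFD) vs. Conv + PBS, -0.02 in Conv + LM vs. Conv + PBS and -0.01 in Conv + OM(HFD) vs. Conv + LM, each smaller than the SD of the balance between mice (0.10). In the last comparison it was -0.111 without Conv + OM(HFD) mouse 25, past that SD, 0.0304 without Conv + LM mouse 14, -0.08 with the slide as a block, and -0.07 and 0.04 on slides 1 and 2. In Conv + LM vs. Conv + PBS it was 0.05 on slide 1 and -0.07 on slide 2.

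**Figure D4:**
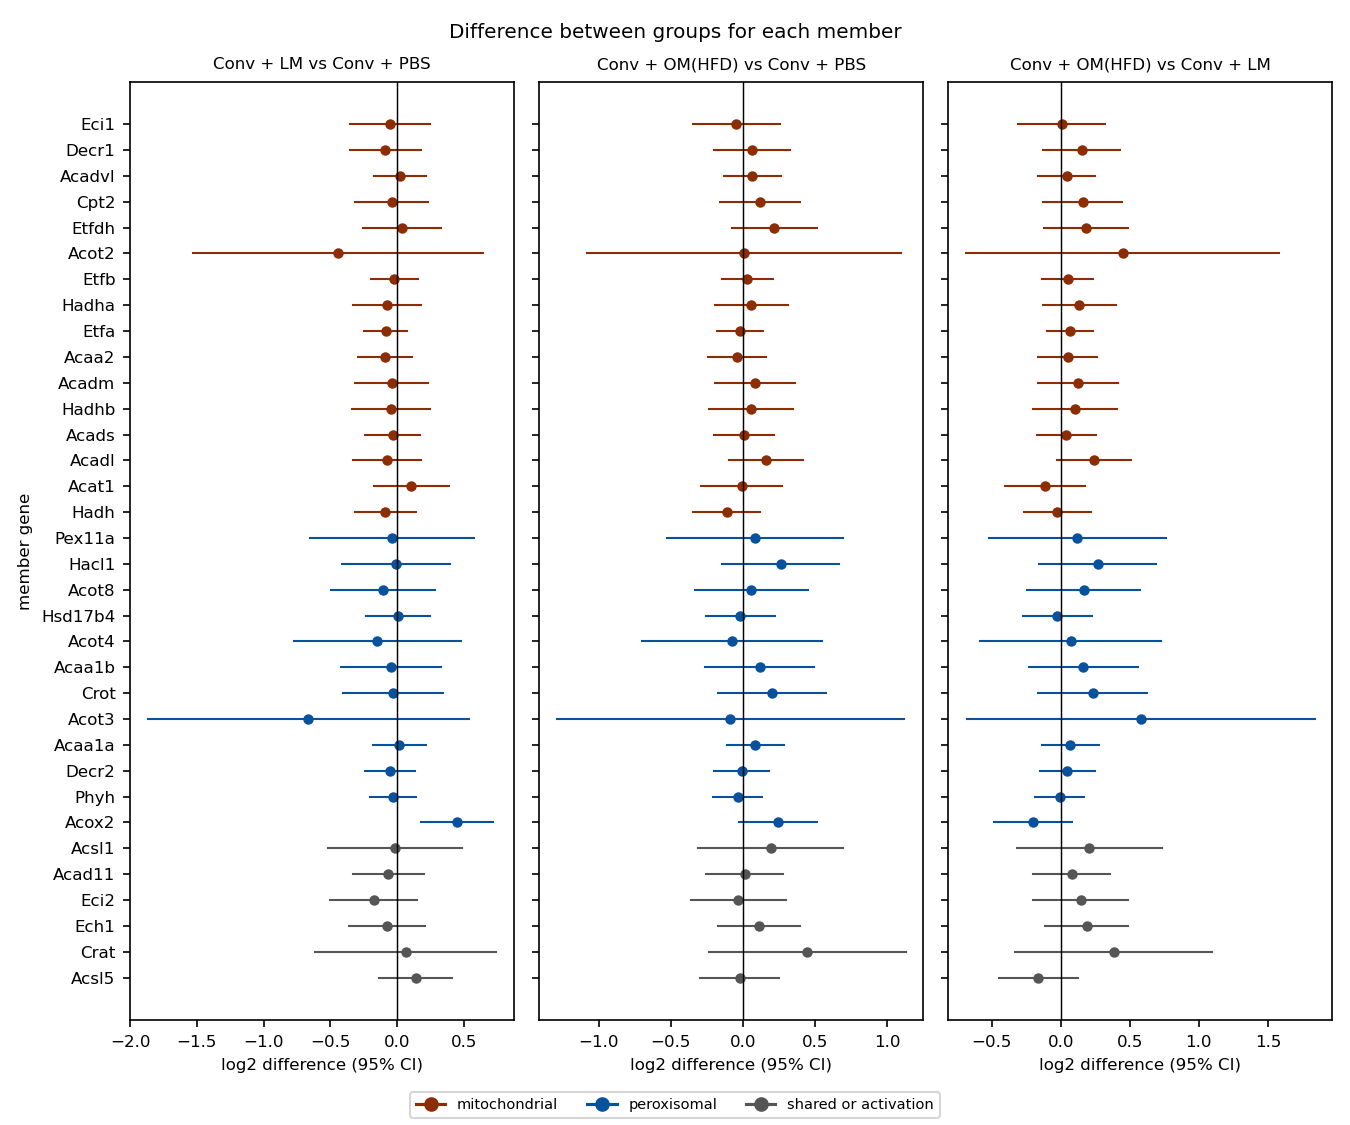
Log2 difference between groups for each member (points) with its 95% confidence interval from limma (lines), in the 3 comparisons named above the panels; colour gives the compartment, and genes are in the order of the heat map of deviations. The interval of Acox2 in Conv + LM vs. Conv + PBS (0.18 to 0.72) leaves out 0, and those of Acot2 and Acot3 are the widest.

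Acox2, the oxidase that starts the breakdown of branched chains and of the side chain of bile acid precursors in peroxisomes, was the 1 member with an unadjusted p under 0.05, a count near the share of all genes and not past the adjustment. Its log2 value was 5.97, 6.48, 6.41, 6.28, 6.02 and 6.12 in Conv + PBS mice 1 to 6. It was 6.53, 6.81, 6.92, 6.48 and 6.58 in Conv + LM mice 13 to 17, and 6.67, 6.27, 6.31, 6.30 and 6.75 in Conv + OM(HFD) mice 25, 26, 28, 29 and 30. The lowest Conv + LM mouse was level with the highest Conv + PBS mouse, and the other 4 lay above every Conv + PBS mouse. Conv + LM exceeded Conv + PBS by 0.45 (SE 0.13), a fold of 1.36 (limma p = 0.00305, adjusted p = 0.998, exact permutation p = 0.00649), and 26 of the 20400 genes had a smaller p in that comparison. Conv + OM(HFD) lay between, 0.25 above Conv + PBS (SE 0.13, limma p = 0.0736, exact permutation p = 0.0952) and 0.20 below Conv + LM (SE 0.13, limma p = 0.148, exact permutation p = 0.167), so the lean and the obese microbiota were not shown to differ in it (interval of the difference -0.49 to 0.08).

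The second Acox2 probe, at the other position printed above, gave the same order. It was -0.50 to 0.00 in Conv + PBS, 0.01 to 1.04 in Conv + LM and -0.31 to 0.38 in Conv + OM(HFD) mice, with the mean of Conv + LM 0.68 above that of Conv + PBS. The 2 probes correlated at r = 0.78 within groups. Within slides, Conv + LM exceeded Conv + PBS by 0.37 on slide 1 (2 against 3 mice, not past an unadjusted limma p of 0.05), by 0.53 on slide 2 (3 against 3 mice, past it), and by 0.47 with the slide as a block. Without the 2 livers with high neutrophil markers the difference was 0.40, and that of Conv + OM(HFD) to Conv + PBS was 0.14. Acox2 did not follow the shared variation (r = -0.06 with the other members). Adipose markers (4 genes of 7, without Adipoq, Retn and Ucp1) ran from -2.94 to 0.04 in Conv + LM and from -3.15 to -2.05 in Conv + PBS mice, with mouse 15 highest in both these markers and Acox2, and their part was not tested.

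The members next in rank did not pass an unadjusted p under 0.05 in limma with all 3 groups in 1 fit. Acadl was 4.65 to 5.31 in Conv + PBS mice (median 5.12), 4.94, 4.79, 5.15, 4.94 and 4.99 in Conv + LM mice and 5.04, 5.36, 5.07, 5.39 and 5.15 in Conv + OM(HFD) mice. Only Conv + LM mouse 15 reached the range of Conv + OM(HFD), which exceeded Conv + LM by 0.24 (SE 0.13, limma p = 0.0788, adjusted p = 0.999, exact permutation p = 0.0317). With only the mice of these groups in the limma fit, and in the methods' t-test, Acadl passed an unadjusted p under 0.05. Etfdh, the dehydrogenase that hands electrons to ubiquinone, was 5.53 to 5.90 in Conv + PBS mice (median 5.68), 5.46, 5.54, 6.02, 5.60 and 6.02 in Conv + LM mice and 5.66, 5.79, 5.72, 6.10 and 6.28 in Conv + OM(HFD) mice. Its values overlapped, and Conv + OM(HFD) exceeded Conv + PBS by 0.22 (SE 0.14, limma p = 0.133, adjusted p = 1, exact permutation p = 0.126), and by 0.13 without Conv + OM(HFD) mouse 30.

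**Figure D5:**
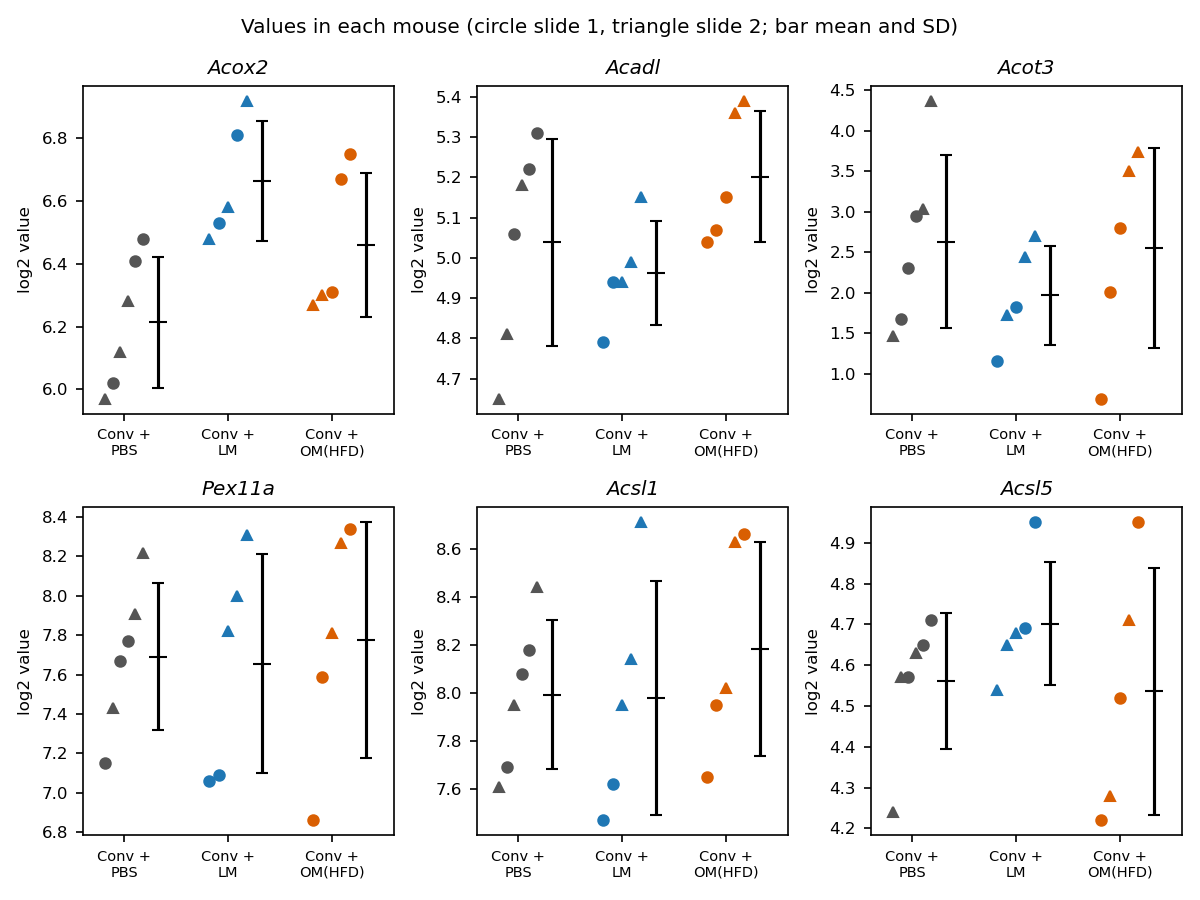
Log2 value of Acox2, Acadl, Acot3, Pex11a, Acsl1 and Acsl5 in each mouse by group (circles slide 1, triangles slide 2), with the mean and SD of the group as a bar at the right of its points. The mean of Acox2 is 6.67 in Conv + LM and 6.22 in Conv + PBS, while Pex11a, Acsl1 and Acot3 spread widely within every group.

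Few genes in the rest of the pathway passed. Of 34 further genes of fatty acid transport and oxidation, 0 passed an unadjusted limma p under 0.05 in Conv + LM vs. Conv + PBS and 0 in Conv + OM(HFD) vs. Conv + PBS. In Conv + OM(HFD) vs. Conv + LM 1 was lower (1.29% of all genes): Acad10, an acyl-CoA dehydrogenase, was 0.28 lower (SE 0.12, limma p = 0.0318, adjusted p = 0.999, exact permutation p = 0.0794). In the same comparison the mean of Echs1 was 0.14 below, and its groups did not overlap, as in 0.432% of all genes (limma p = 0.103, exact permutation p = 0.00794, the smallest that 5 against 5 mice allow). Of 24 PPARα and fasting targets 0 passed in any comparison, with the smallest p for Ppargc1a (0.36 in Conv + OM(HFD) vs. Conv + PBS, SE 0.20, limma p = 0.0824, exact permutation p = 0.123). Of 16 genes of peroxisome biogenesis 1 was higher in Conv + LM vs. Conv + PBS (1.79% of all genes), Pex16, a membrane assembly factor, by 0.22 (SE 0.09, limma p = 0.0247, adjusted p = 0.998, exact permutation p = 0.0195). Of 12 mitochondrial reference genes 0 passed.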

How the data were processed

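Liver RNA (200 ng) of 16 mice was labelled and hybridized to 1 Agilent array each. The authors extracted the signals with Agilent Feature Extraction 10.10.1.1, and the deposited intensity values (processed signal, linear scale) had their background removed array by array, with no step that makes arrays comparable. The authors also deposited log2 values, which equalled quantile-normalized log2 median signals to within 0.13, with every column matched to a mouse. Groups came from the sample labels.

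Control spots and spots flagged as outliers were left out, replicate spots were averaged per probe, and values were put on the log2 scale relative to the 75th percentile of their array. Probes well above background on at least 5 arrays were kept (30659 of 56605), and the probe with the highest mean stood for a gene (20400 genes). The number of arrays limits the precision. Groups were compared with limma 3.58.1 in R 4.3.3 (all 3 groups in 1 fit, Benjamini-Hochberg adjustment over all genes), and single genes by exact two-sided permutation tests. Correlations used deviations from group means and are descriptions. The fit was tested on simulated data. File input used the R package data.table (version 1.17.8), and sequences and plots Python 3.11.15 and matplotlib 3.10.9. All 34 names are current RefSeq symbols. Exon and UTR positions of the probes were not looked up, since no annotation of mm9 was used here.

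The members and gene lists were chosen with earlier results of these data known. Per-mouse values are given for members at an unadjusted p under 0.05, the 2 smallest p in each comparison, the 4 largest SDs within groups and the 2 highest correlations within each compartment. Acsl5 was named after its values were seen.

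Alternatives were normexp (offset 50), quantile normalization, the authors' values, no filter, a filter on all 16 arrays, the mean of all probes, the slide as a block, each slide alone, only the groups compared, array weights, the methods' t-test, Spearman's rho, group means kept, 3 members counted as peroxisomal and leaving out each mouse. Leaving out both livers with high neutrophil markers was added after seeing the data.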

Additional observations from a re-analysis of the deposited data

Results flagged for a closer look

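Acsl5 in Conv + PBS mouse 6 lay far from the other mice of its group: its log2 value was 4.24, the lowest of the 6, and the next was 4.57. The same liver had the highest mean of the members in its group. Of 111 groups of values examined (34 members and 3 means in 3 groups), 1 stood out in this way, while chance alone gives about 5%.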

How the results depend on the processing

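Scaling moved how tightly the members correlated. The share of positive pairs was 84.8% with quantile normalization against 92.3%, and Phyh joined Acox2 and Acsl5 below 0. The median pairwise r of the members, the mitochondrial pairs and the pairs across compartments was 0.58, 0.57 and 0.56 with normexp, 0.50, 0.52 and 0.46 with quantile normalization and 0.44, 0.45 and 0.41 with the authors' values. That of the peroxisomal pairs was 0.34 with quantile normalization and 0.35 with the authors' values. On slide 1 alone the members, mitochondrial and peroxisomal pairs had 0.74, 0.83 and 0.45. Leaving out each mouse gave 0.64 to 0.70 for the members. The cause was not tested.

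The number of members at an unadjusted p under 0.05 in Conv + OM(HFD) vs. Conv + PBS was 1 in place of 0 with the authors' values (Etfdh, 0.25) and on slide 2 alone (Acadl, 0.50), and 0 to 1 when each mouse was left out (1, Acox2, without Conv + PBS mouse 2 or Conv + OM(HFD) mouse 26). In Conv + OM(HFD) vs. Conv + LM it was 1 (Acadl, 0.24) with only the mice of these groups and in the methods' t-test, 1 (Acadl, 0.28) without both mice with high neutrophil markers, an alternative chosen after seeing the data, and 0 to 1 when each mouse was left out (Acadl without Conv + PBS mouse 1, Crot without Conv + LM mouse 17, Acsl5 without Conv + OM(HFD) mouse 25). In Conv + LM vs. Conv + PBS it was 1 under every alternative, namely Acox2 except on slide 1 alone, where it was Acadl (-0.33). On slide 1 alone Acadl also turned sign in Conv + OM(HFD) vs. Conv + PBS (-0.11). The mitochondrial minus peroxisomal shift in Conv + OM(HFD) vs. Conv + LM ran from -0.111 to 0.0304 when each mouse was left out, was -0.111 without both mice with high neutrophil markers, -0.08 with the slide as a block, and -0.07 and 0.04 on slides 1 and 2.

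The median difference of the members ran from -0.01 to 0.13 in Conv + OM(HFD) vs. Conv + PBS, from -0.10 to 0.01 in Conv + LM vs. Conv + PBS and from 0.03 to 0.20 in Conv + OM(HFD) vs. Conv + LM when each mouse was left out. Over the other alternatives it ran from 0.02 to 0.13, from -0.24 (slide 1 alone) to 0.08 (slide 2 alone) and from 0.05 (slide 2 alone) to 0.22 (slide 1 alone). Of 457 values of 16 results under the alternatives, 431 stayed within the spread or count limits and 26 moved. For the median differences this limit was the SD of the member mean between mice (0.22), which is larger than the differences themselves. The turn of sign between the slides in Conv + LM vs. Conv + PBS therefore counted as staying. Counts at an adjusted p under 0.05 were 0 throughout. The 431 is thus no measure of how stable the differences are. Differences of single named members smaller than their SE (25) are not among the 457 values, and 17 of them changed sign under at least 1 alternative. No paired analysis was possible because the groups share no mouse numbers. The number of mice limits the precision, scaling and slide moved values as given above, and all members were well above background.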
